A study of Mus musculus with 36 samples.

Results

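Toll-like receptors and their adaptor MyD88 were followed across 6 groups of cultured mouse bone cells. The members were set by name: 9 receptor genes (Tlr1, Tlr2, Tlr3, Tlr4, Tlr6, Tlr7, Tlr8, Tlr9 and Tlr13) and Myd88, which made 10 of the 30205 genes in the tables. Toll-like receptors are membrane proteins of innate immunity that bind conserved microbial molecules. Tlr1, Tlr2, Tlr4 and Tlr6 act at the cell surface, where TLR2 pairs with TLR1 or TLR6 to bind lipoproteins and TLR4 binds lipopolysaccharide. Tlr3, Tlr7, Tlr8, Tlr9 and Tlr13 act in endosomes and bind nucleic acids, and TLR13 of the mouse binds bacterial ribosomal RNA. MyD88 carries the signal of every receptor in the set except TLR3, which uses the adaptor TRIF (Ticam1). Macrophages are rich in these receptors. Osteoclasts, the cells that resorb bone, form from the same precursors under RANK-L (receptor activator of NF-κB ligand), and osteoblasts, which build bone, are of another lineage.

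The 36 RNA-seq libraries came from mice of 20 weeks of age, either wild-type control (WT) or Mir324-null (null, lacking the gene of the microRNA miR-324), with 6 libraries in each group. WT BMM and null BMM are bone marrow macrophages, grown from flushed long-bone marrow for 3 days in 100 ng/mL M-CSF (macrophage colony-stimulating factor) and then for 5 days in 30 ng/mL M-CSF. WT OC and null OC, labelled osteoclasts, are the same kind of culture given 30 ng/mL M-CSF together with 50 ng/mL RANK-L for those 5 days. WT OB and null OB, labelled osteoblasts, grew out of collagenase-treated bone chips over about 6 weeks and were kept 18 days with 2 mM β-glycerophosphate and 50 µg/mL ascorbic acid. The labels do not say that the libraries of a group came from separate mice, so p-values measure the spread between these libraries, which may be technical. The microRNA was not analysed here, and genotypes are as labelled.

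The libraries held 14118972 to 26347581 estimated counts. Against fixed marker lists, the 7 macrophage markers summed to 46613 to 58128 TPM (transcript abundance scaled for length and for the total of the library) in the libraries of WT BMM and null BMM. The libraries labelled null OC went against their label. Their 7 osteoclast markers summed to 366 ± 112 TPM (SD, n = 6), against 31928 ± 1564 TPM in WT OC, and the calcitonin receptor gene Calcr had at most 3 counts in each of them. Their macrophage markers summed to 55898 ± 3588 TPM, against 16319 ± 708 TPM in WT OC. Most of both sums was Lyz2, at 49807 ± 3141 TPM in null OC and 11858.5 ± 969 TPM in WT OC. Of the 7 markers 6 were higher in null OC, and Cd68 was lower, at 2393 ± 170 against 3328 ± 260 TPM. Replicate 6 of null OC stood apart: its level of the osteoclast protease gene Ctsk was 218 TPM, the others lay between 37.0 and 64.5 TPM, and it was the lowest of its group for all 9 receptors. Against null BMM, however, 5 of the 7 osteoclast markers were higher in null OC and 0 were lower, with or without replicate 6. Among all genes tested 6.78% were higher and 6.07% lower. Of these markers Ctsk was at 82.1 ± 67.5 TPM against 3.93 ± 0.805 TPM (log2 fold change 4.34, SE 0.37), and the fusion gene Dcstamp (3.65, SE 0.65) and the phosphatase gene Acp5 (1.31, SE 0.15) were higher too. These sizes include replicate 6. Without it the largest log2 fold change of the list was 3.72 in place of 4.34, and the median 0.89 in place of 1.31. No comparison of osteoclast cultures between genotypes can be made without the libraries labelled null OC, and the counts of members and lists that rest on null OC are also given without replicate 6. The OB cultures also held macrophage markers, at 16722 ± 1580 TPM in WT OB and 11120 ± 1969 TPM in null OB, and osteoclast markers, at 4676 ± 377 and 6526 ± 1075 TPM. Lyz2 was again most of the macrophage sum (14900 ± 1538 TPM in WT OB and 9609 ± 1982 TPM in null OB). The same held in WT BMM (45768 ± 4153 TPM) and null BMM (50310.5 ± 1507 TPM). The 7 osteoblast markers summed to 20633 to 49556 TPM in the OB libraries, and to at most 77.2 TPM in any BMM or OC library. The 6 dendritic cell markers summed to at most 9.44 TPM and the 4 adipocyte markers to at most 0.466 TPM in any library. In bulk RNA, fewer cells of a type and less RNA per cell cannot be told apart.

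The 2 mature strands of miR-324 come first, because a microRNA acts through its seed (bases 2 to 8, in capitals), which pairs with sites in the 3′ UTR of target transcripts. They are from RefSeq (GRCm38.p6, chromosome 11, plus strand), at chr11:70012060-70012082 and chr11:70012095-70012114.
mmu-miR-324-5p: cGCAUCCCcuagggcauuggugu
mmu-miR-324-3p: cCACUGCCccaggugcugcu
The 3′ UTR of each of the 10 members was searched for the reverse complement of each seed. The letters GGGATGC, for miR-324-5p, were in 8.71% of the 13685 3′ UTRs of tested genes and in 0 of the 10 members. The letters GGCAGTG, for miR-324-3p, were in 15.7% of them and again in 0 of the 10 members. That says only that these letters are not in these annotated 3′ UTRs.

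The promoter windows of Tlr2, Tlr8 and Tlr13 are shown because their patterns differed and the RefSeq table held a window for each: Tlr2 rose in null cultures of both myeloid kinds, and Tlr8 and Tlr13 fell steeply in WT cultures given RANK-L. Each window runs from 250 bases before to 50 bases after the RefSeq start (GRCm38.p6) and is printed on the strand of the gene. In Tlr8 and Tlr13 capitals mark the letters GAGGAA on either strand, the core bound by PU.1, a transcription factor of myeloid cells. In Tlr2 capitals mark matches to the general form of the NF-κB motif.
Tlr2 (chr3:83841559-83841858, minus strand): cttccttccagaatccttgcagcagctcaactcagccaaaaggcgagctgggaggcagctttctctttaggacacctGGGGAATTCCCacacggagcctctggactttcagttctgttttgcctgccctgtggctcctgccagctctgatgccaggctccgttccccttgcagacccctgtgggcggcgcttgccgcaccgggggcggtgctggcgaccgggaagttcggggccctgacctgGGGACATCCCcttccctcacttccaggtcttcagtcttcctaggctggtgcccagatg
Tlr8 (chrX:167264280-167264579, minus strand): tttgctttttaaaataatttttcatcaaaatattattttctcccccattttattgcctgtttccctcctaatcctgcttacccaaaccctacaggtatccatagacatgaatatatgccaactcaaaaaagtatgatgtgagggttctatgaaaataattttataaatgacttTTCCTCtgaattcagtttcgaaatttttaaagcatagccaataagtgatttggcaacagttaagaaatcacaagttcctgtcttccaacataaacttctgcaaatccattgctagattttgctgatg
Tlr13 (chrX:106143025-106143324, plus strand): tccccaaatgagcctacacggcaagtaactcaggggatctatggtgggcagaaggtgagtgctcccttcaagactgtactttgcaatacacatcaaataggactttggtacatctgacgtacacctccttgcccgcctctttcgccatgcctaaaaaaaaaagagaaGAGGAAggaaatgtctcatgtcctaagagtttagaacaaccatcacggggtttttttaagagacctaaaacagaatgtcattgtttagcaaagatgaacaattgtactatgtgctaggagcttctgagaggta
The RefSeq table held 10 windows for 8 of the 10 members, with 2 windows each for Tlr1 and Tlr6. Tlr4 and Tlr7 had no window in it. GAGGAA, or its reverse complement, was in 28.3% of all 32851 windows, and among the members in windows of Tlr1, Tlr8, Tlr9 and Tlr13. In Tlr13 the match began 83 bases before the start base, and in Tlr8 it lay on the other strand, beginning 77 bases before it. The general form of the NF-κB motif, added after the windows had been seen, was in 8.46% of all windows, and among the members in those of Tlr2 and Tlr3. In Tlr2 it matched at overlapping positions beginning 173 and 172 bases before the start base, and again 8 bases before it. The other motifs, searched on both strands, were a narrower form of the NF-κB motif (in 1.63% of windows, found in Tlr3 and not in Tlr2), AP-1 (TGANTCA, 7.81%, found in Tlr9), NFAT (TGGAAA, 21.4%, found in Tlr1, Tlr3 and Tlr9) and the interferon-stimulated response element (3.44%, found in Tlr6 and Myd88). In Tlr6 the latter matched at 2 overlapping positions. A match is a description of the letters and not evidence of binding, and no match says only that the letters searched are not in the window.

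The genes lie on 6 chromosomes of GRCm38. Tlr7 (chrX:167304929-167330558, minus strand) and Tlr8 (chrX:167242696-167264329, minus strand) are neighbours, and so are Tlr1 (chr5:64924679-64933563, minus strand) and Tlr6 (chr5:64952031-64960097, minus strand). Tlr13 (chrX:106143204-106160493, plus strand) is elsewhere on the X chromosome. Tlr2 is at chr3:83836272-83841767 (minus strand), Tlr4 at chr4:66827584-66930284 (plus strand) and Tlr3 at chr8:45395665-45411080 (minus strand). Tlr9 (chr9:106222598-106226883, plus strand) and Myd88 (chr9:119335934-119341411, minus strand) are both on chromosome 9. Some reads could not be assigned to one gene. Of the words of 31 bases in its transcripts, Tlr1 shared 18.3% with Tlr6, and Tlr6 shared 16.4% with Tlr1, so the split of reads between these paralogs is uncertain. Tlr3 shared 6.10% of its words with the antisense gene Gm45542, and Myd88 shared 8.93% with the neighbour Acaa1a on the other strand. The counting is not stated to use strand, so those values are uncertain too. Tlr2, Tlr7, Tlr8, Tlr9 and Tlr13 shared none.

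In WT BMM the endosomal receptors made up most of the receptor RNA. The 9 receptors summed to 518 ± 18.1 TPM (SD, n = 6), of which 74.6% ± 1.70 was endosomal. TPM is scaled for transcript length, so levels of different genes can be compared on it. Tlr13 was highest at 210.3 ± 23.7 TPM, followed by Tlr7 at 101 ± 6.04 TPM and Tlr8 at 67.9 ± 3.90 TPM. Short transcripts on few counts held part of the TPM of Tlr7 and Tlr8 (given below), so their rank and the endosomal share are less certain. The surface receptors Tlr2 (54.1 ± 6.44 TPM) and Tlr4 (53.2 ± 2.16 TPM) were at about the same level as each other. Tlr1 (13.0 ± 1.38 TPM), Tlr6 (11.1 ± 1.01 TPM) and Tlr3 (6.93 ± 1.15 TPM) were lower, and Tlr9, the receptor for CpG DNA, was at 0.74 ± 0.28 TPM. Tlr9 rested on only 7 to 52 counts in any of the 36 libraries, which limits every statement about it. Myd88 was at 65.1 ± 4.73 TPM.

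Both the sum and the make-up of the receptor set differed between groups. Null BMM had a sum of 396 ± 39.3 TPM, and Tlr2 alone was 40.1% ± 3.62 of it, against 10.5% ± 1.35 in WT BMM. The share of surface receptors was 52.5% ± 2.62 in null BMM and 25.4% ± 1.70 in WT BMM, and the ranges (49.8% to 56.1%, and 24.2% to 28.7%) did not overlap. WT OC had a sum of 154 ± 12.7 TPM with Tlr13 still the largest share, 36.2% ± 1.03. The libraries labelled null OC had a sum of 392 ± 57.9 TPM with Tlr2 the largest share, 35.97% ± 2.08. WT OB summed to 114 ± 11.8 TPM and null OB to 97.4 ± 11.4 TPM. Tlr2 was the largest share in both, at 30.0% ± 1.47 and 29.6% ± 3.93. These shares were not tested.

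**Figure D1:**
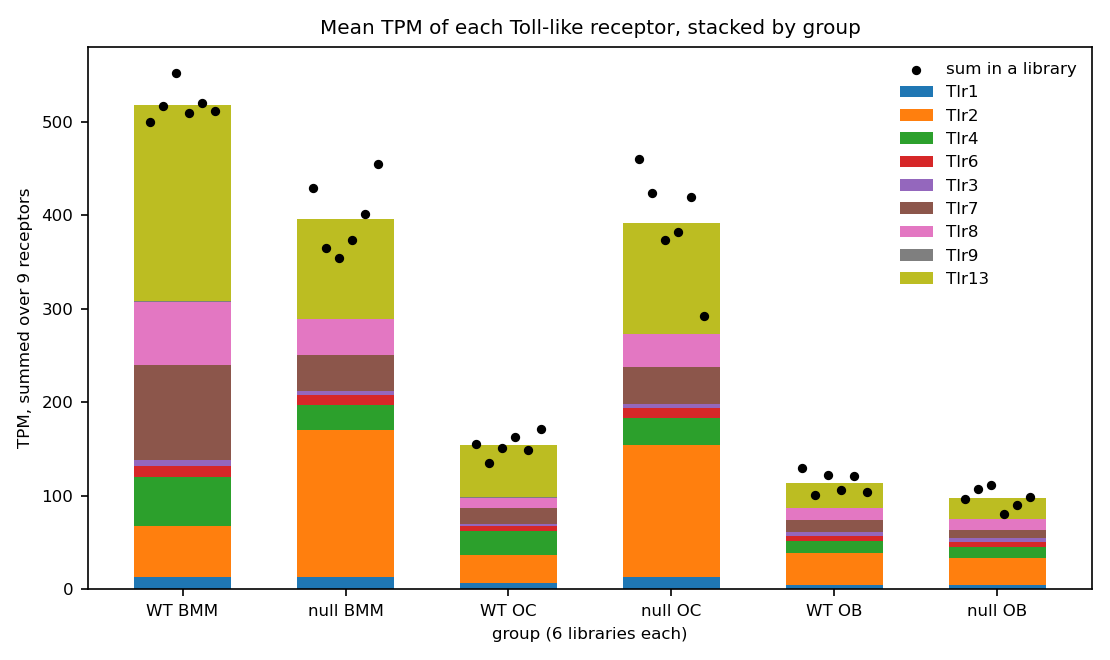
Stacked bars give the mean TPM of each of the 9 receptors in the 6 groups (x axis), and black points give the sum in each library (6 per group, y axis in TPM). The WT BMM bar is the tallest at 518 TPM with Tlr13 as its largest block, and Tlr2 is the largest block in null BMM and in the libraries labelled null OC.

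Changes of a gene between groups are given in CPM (counts relative to a library size scaled by TMM) and as log2 fold changes with their SE from edgeR's quasi-likelihood test. P-values were adjusted with the Benjamini-Hochberg method across the genes tested in a comparison. A gene is said to have changed where this adjusted p was under 0.05. All 10 members passed the filter on low counts in every fit.

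The first comparison asks what RANK-L did to the receptors of WT macrophages. All 10 members fell in WT OC against WT BMM, where 30.1% of all genes tested fell, 30.4% rose and 60.5% changed in either direction. The median log2 fold change of the members was -1.20, against -0.003 over all genes tested. The fall was steepest in the endosomal receptors, from -1.10 to -2.75 (median -2.03), and the 4 surface receptors lay between -0.96 and -1.21. Myd88 fell least, by 0.30 on the log2 scale. The CPM ranges of the 2 groups were apart for 9 members and overlapped for Tlr9. No share of all genes tested stands beside this count or the like counts below. Such counts therefore describe the libraries alone and do not set the members apart from other genes.

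Tlr7, which binds single-stranded RNA, ranged from 182 to 229 CPM in WT BMM (median 204) and from 26.3 to 39.7 CPM in WT OC (median 28.9). Every WT OC library was below every WT BMM library, and the WT OC mean was 14.9% of the WT BMM mean (log2 fold change -2.75, SE 0.11, adjusted p 1.94e-18). Tlr8, its neighbour on the X chromosome and also a sensor of RNA, ranged from 100.4 to 128 CPM in WT BMM (median 115) and from 15.8 to 17.9 CPM in WT OC (median 17.6). It kept 14.8% of the WT BMM mean (log2 fold change -2.75, SE 0.09, adjusted p 1.51e-19). Tlr13 went from 514 to 661 CPM (median 559.8) in WT BMM to 130.3 to 150.3 CPM (median 142) in WT OC. That is 24.5% of the WT BMM mean, with the groups again apart (log2 fold change -2.03, SE 0.07, adjusted p 6.33e-19). Tlr3, the sensor of double-stranded RNA, kept 32.4% of its mean, at 6.39 ± 1.04 CPM in WT OC against 19.7 ± 2.92 CPM in WT BMM.

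The surface receptors fell by similar amounts to each other. Tlr4 was at 127 to 145 CPM in WT BMM (median 136) and at 56.9 to 66.2 CPM in WT OC (median 59.2), with the groups apart (log2 fold change -1.19, SE 0.09, adjusted p 3.39e-12). Tlr2 was at 92.9 to 133 CPM (median 105) in WT BMM and at 50.6 to 59.9 CPM (median 56.4) in WT OC, so it kept 51.6% of its mean (log2 fold change -0.96, SE 0.09). Tlr1 and Tlr6, the partners of TLR2, kept 46.1% and 43.4%. Myd88 was at 66.9 to 74.4 CPM in WT BMM and 56.9 to 58.7 CPM in WT OC, a small difference with no overlap. The macrophage markers moved with the receptors: all 7 fell in WT OC, with a median log2 fold change of -1.05, and their part in the result was not tested.

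**Figure D2:**
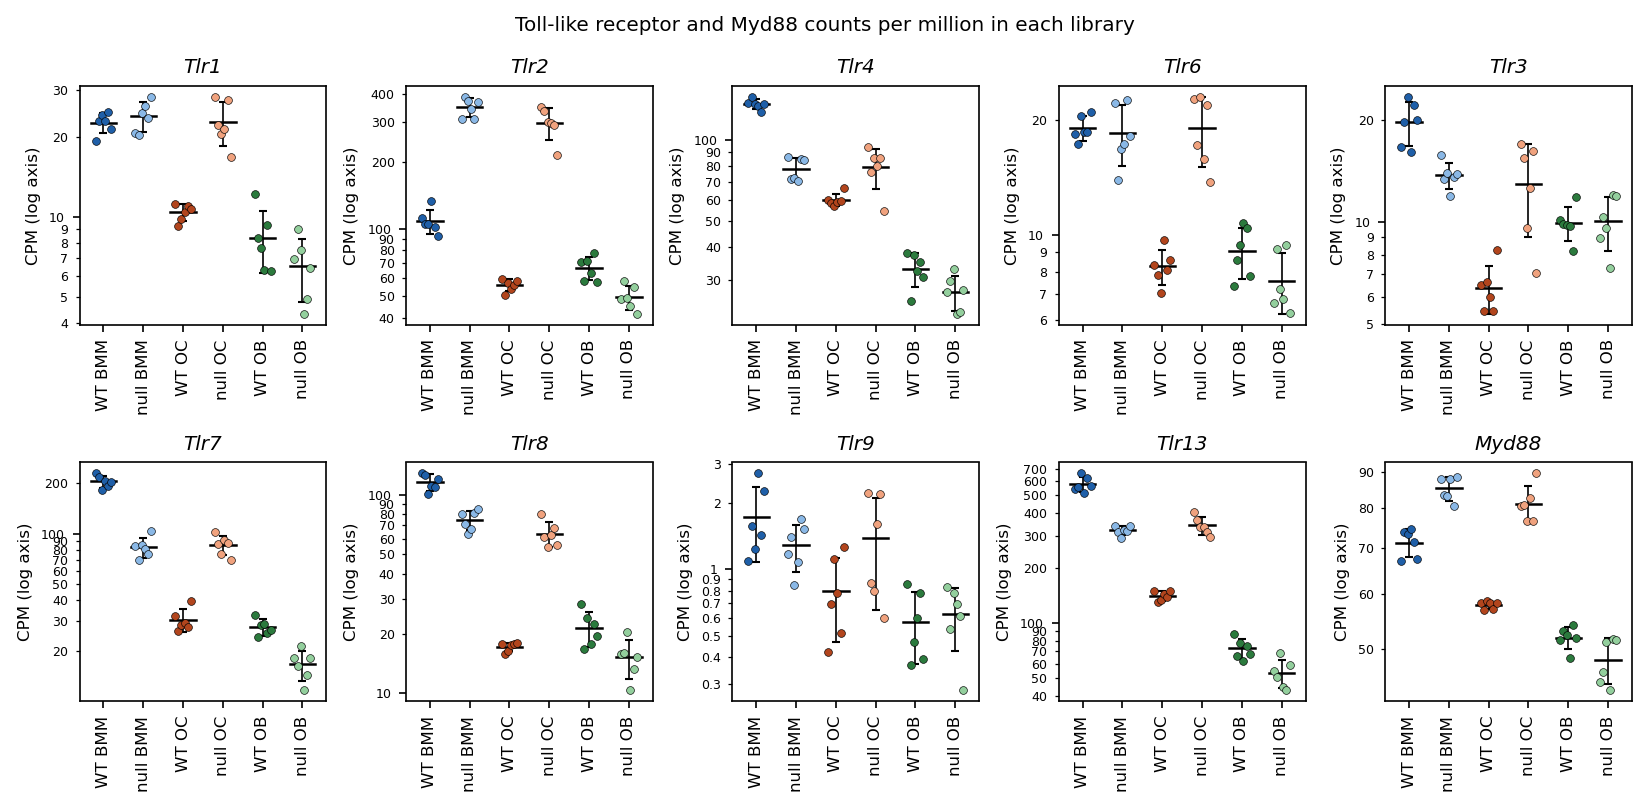
Each panel shows 1 gene, with the CPM of every library (points) on a log axis, the group mean (line) and ± SD (bar) for the 6 groups of 6 libraries. WT OC lies below WT BMM for every gene, with overlap only for Tlr9, and null BMM and the libraries labelled null OC lie at about the same height.

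The second comparison is the effect of genotype in macrophages. In null BMM, 2 members rose (Tlr2 and Myd88), 5 fell (Tlr3, Tlr4, Tlr7, Tlr8 and Tlr13) and 3 did not pass the test (Tlr1, Tlr6 and Tlr9). Among all genes tested, 27% rose, 25.4% fell and 52.3% changed, so a count of 7 of 10 is read against a background in which most genes changed. The median of the members was -0.46, against 0.02 over all genes tested. The CPM ranges of null BMM and WT BMM were apart for 7 members.

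Tlr2 went against the 5 receptors that fell. It ranged from 309 to 389 CPM in null BMM (median 357) and from 92.9 to 133 CPM in WT BMM (median 105). Every null BMM library was above every WT BMM library (log2 fold change 1.70, SE 0.09, adjusted p 1.73e-10, 3.24-fold). Its partner genes gave values near 0, at 0.09 (SE 0.10, adjusted p 0.463) for Tlr1 and -0.03 (SE 0.12, adjusted p 0.822) for Tlr6. Tlr4, the remaining surface receptor, was at 70.6 to 86.2 CPM in null BMM (median 78.1) against 127 to 145 CPM in WT BMM, and fell with no overlap (log2 fold change -0.79, SE 0.07, adjusted p 1.59e-07).

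The endosomal receptors were lower in null BMM, led by Tlr7. Tlr7 ranged from 69.8 to 103 CPM (median 82.8) against 182 to 229 CPM in WT BMM, so that null BMM kept 40.6% of the WT mean (log2 fold change -1.29, SE 0.09, adjusted p 5.54e-09). Tlr13 was at 292 to 342 CPM (median 322), against 514 to 661 CPM in WT BMM (log2 fold change -0.83, SE 0.07). Tlr8 was at 63.4 to 84.3 CPM (median 75.5), against 100.4 to 128 CPM in WT BMM (log2 fold change -0.63, SE 0.09). Tlr3 was at 11.9 to 15.8 CPM, just below the WT BMM range of 16.1 to 23.5 CPM (log2 fold change -0.51, SE 0.11, adjusted p 0.000957). Tlr9 was at 0.85 to 1.69 CPM against 1.09 to 2.73 CPM, and did not pass the test (-0.41 on the log2 scale, SE 0.26, adjusted p 0.206). Myd88 was at 80.3 to 88.6 CPM against 66.9 to 74.4 CPM, a small rise with no overlap (log2 fold change 0.27, SE 0.06, adjusted p 0.000943).

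Markers also differed between null BMM and WT BMM. Of the 7 macrophage markers, 2 rose (Adgre1 and Lyz2), 4 fell (Mertk, Itgam, Cd68 and Fcgr1) and Csf1r did not pass the test. Adgre1, the F4/80 antigen gene, was at 2529 to 3793 TPM in null BMM against 814 to 963 TPM in WT BMM. The 8 neutrophil markers summed to 43.3 to 105 TPM in null BMM and 0.741 to 2.11 TPM in WT BMM. That sum was nearly all S100a8 (70.2 ± 20.9 TPM in null BMM), while S100a9, Ly6g, Ngp, Ltf and Elane were at 3 counts or fewer in every library of both groups. The osteoblast markers summed to 11.9 to 30.7 TPM in null BMM and 2.69 to 7.38 TPM in WT BMM, and all 3 that were tested rose. Of 5 osteoclast markers tested 2 rose and 2 fell, and the list summed to 174 ± 16.8 TPM in null BMM and 73.9 ± 6.12 TPM in WT BMM. Mmp9 was at 105 ± 14.3 TPM in null BMM against 0.288 ± 0.177 TPM, and Ctsk at 3.93 ± 0.805 against 8.57 ± 1.40 TPM. Of 3 dendritic cell markers tested 1 rose and 1 fell. The part of these levels in the result was not tested.

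The third comparison is the effect of genotype in cultures given RANK-L. In the libraries labelled null OC, 9 members rose and 0 fell against WT OC, where 32.4% of all genes tested rose, 33.1% fell and 65.6% changed. At an unadjusted p under 0.05 the counts were 10 higher and 0 lower, and DESeq2 and limma-voom each called the same numbers as edgeR, 9 higher and 0 lower. The median of the members was 1.18, against -0.03 over all genes tested. The groups were apart in CPM for 7 members, and overlapped for Tlr3, Tlr4 and Tlr9. Without replicate 6 of null OC, all 10 were called.

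Tlr2 showed the largest difference of the members. It ranged from 215 to 352 CPM in null OC (median 298) and from 50.6 to 59.9 CPM in WT OC (median 56.4). The lowest null OC library, replicate 6, was still above the highest WT OC library (log2 fold change 2.42, SE 0.10, adjusted p 1.29e-12, 5.36-fold). Tlr1 and Tlr6 rose as well, here with their partner. Tlr1 was at 16.8 to 28.2 CPM against 9.24 to 11.2 CPM (log2 fold change 1.14, SE 0.12), and Tlr6 at 13.7 to 22.9 CPM against 7.06 to 9.69 CPM (log2 fold change 1.21, SE 0.14). Tlr4 rose least of the receptors, from 59.9 ± 3.26 CPM in WT OC to 79.4 ± 13.6 CPM, and its replicate 6 (54.6 CPM) was below the whole WT OC range of 56.9 to 66.2 CPM (log2 fold change 0.42, SE 0.10, adjusted p 0.00151).

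Among the endosomal receptors, Tlr8 ranged from 54.4 to 80.0 CPM in null OC (median 62.0) against 15.8 to 17.9 CPM in WT OC (log2 fold change 1.90, SE 0.09, adjusted p 1.39e-11). Tlr7 ranged from 70.1 to 102 CPM (median 87.1) against 26.3 to 39.7 CPM (log2 fold change 1.49, SE 0.11), and Tlr13 from 298 to 408 CPM (median 336) against 130.3 to 150.3 CPM (log2 fold change 1.29, SE 0.07). No null OC library of these 3 genes came down to the WT OC range. Tlr3 was more scattered, from 7.06 to 17.0 CPM against 5.45 to 8.24 CPM, with replicate 6 inside the WT OC range (log2 fold change 1.04, SE 0.19, adjusted p 0.000164). Tlr9 was at 0.60 to 2.23 CPM against 0.42 to 1.26 CPM and did not pass the test (log2 fold change 0.81, SE 0.37, adjusted p 0.0665). It passed without any one of WT OC replicate 6 and null OC replicates 2, 3 and 6, with adjusted p from 0.0236 to 0.0465, and in the fit of all 36 libraries (0.0306). Myd88 was at 76.5 to 89.6 CPM against 56.9 to 58.7 CPM (log2 fold change 0.49, SE 0.06, adjusted p 6.12e-07). Beside these values, 6 of the 7 macrophage markers rose and 1 (Cd68) fell, and all 7 osteoclast markers fell. The neutrophil markers summed to 40.2 to 54.2 TPM in null OC against 0.0341 to 2.06 TPM in WT OC. In null OC that sum was nearly all S100a8 (47.3 ± 5.39 TPM), and S100a9, Ly6g, Ngp, Ltf, Elane and Mpo were at 3 counts or fewer in every library. The osteoblast markers summed to 14.4 to 77.2 TPM in null OC against 3.44 to 4.72 TPM in WT OC. Their part in the result was not tested.

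The members differed little between null OC and null BMM, and 5 of the 7 osteoclast markers were higher in null OC. Those 7 markers summed to 366 ± 112 TPM in null OC against 31928 ± 1564 TPM in WT OC. The part of this low level in the result was not tested. In the libraries labelled null OC against null BMM, edgeR called 0 of the 10 members, where 12.9% of all genes tested changed (6.78% rose and 6.07% fell). At an unadjusted p under 0.05 there were 2, both lower (Tlr2 and Tlr8), DESeq2 also gave 0 called with 2 at the unadjusted level, and limma-voom gave 0 at both. Without replicate 1 of null OC 1 member was called, Tlr8 (log2 fold change -0.29, adjusted p 0.0229), and without replicate 6 none was. Log2 fold changes lay between -0.22 and 0.13, with SE from 0.05 to 0.33. The mean in null OC was 85.5% (Tlr2) to 107% (Tlr9) of the mean in null BMM, and no member had ranges that were apart.

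The difference between the 2 responses was tested itself, as the interaction of genotype with RANK-L. All 10 members were higher by this test, where 25.3% of all genes tested were higher, 26.1% were lower and 51.4% were called. The interaction is the log2 response to RANK-L in null cells minus that in WT cells. It was 2.80 (SE 0.14) for Tlr7, 2.54 (SE 0.13) for Tlr8 and 2.13 (SE 0.10) for Tlr13, which were also the members that fell furthest in WT cells. That match follows from the subtraction and is not a separate result, because the responses in null cells lay between -0.22 and 0.13. The interaction was 1.56 (SE 0.23) for Tlr3, 1.26 (SE 0.18) for Tlr6, 1.21 (SE 0.13) for Tlr4, 1.06 (SE 0.15) for Tlr1 and 0.74 (SE 0.13) for Tlr2. The smallest was Myd88 at 0.24 (SE 0.07, adjusted p 0.00847), which was lost when transcript length was modelled (0.17, adjusted p 0.0858, and 0.14, adjusted p 0.079, with GC content as well). Tlr9 was called at 1.23 (SE 0.47, adjusted p 0.0308) but lost without any one of 7 libraries: WT BMM replicates 4 and 6, null BMM replicate 3, WT OC replicates 1 and 5, and null OC replicates 1 and 5 (adjusted p 0.0508 to 0.0701), and with the length and GC offset (0.97, adjusted p 0.0791). Without replicate 6 of null OC all 10 members were still called. The interaction and the genotype comparison in OC share the WT OC and null OC libraries. It also shares the WT OC and WT BMM libraries with the first comparison.

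**Figure D3:**
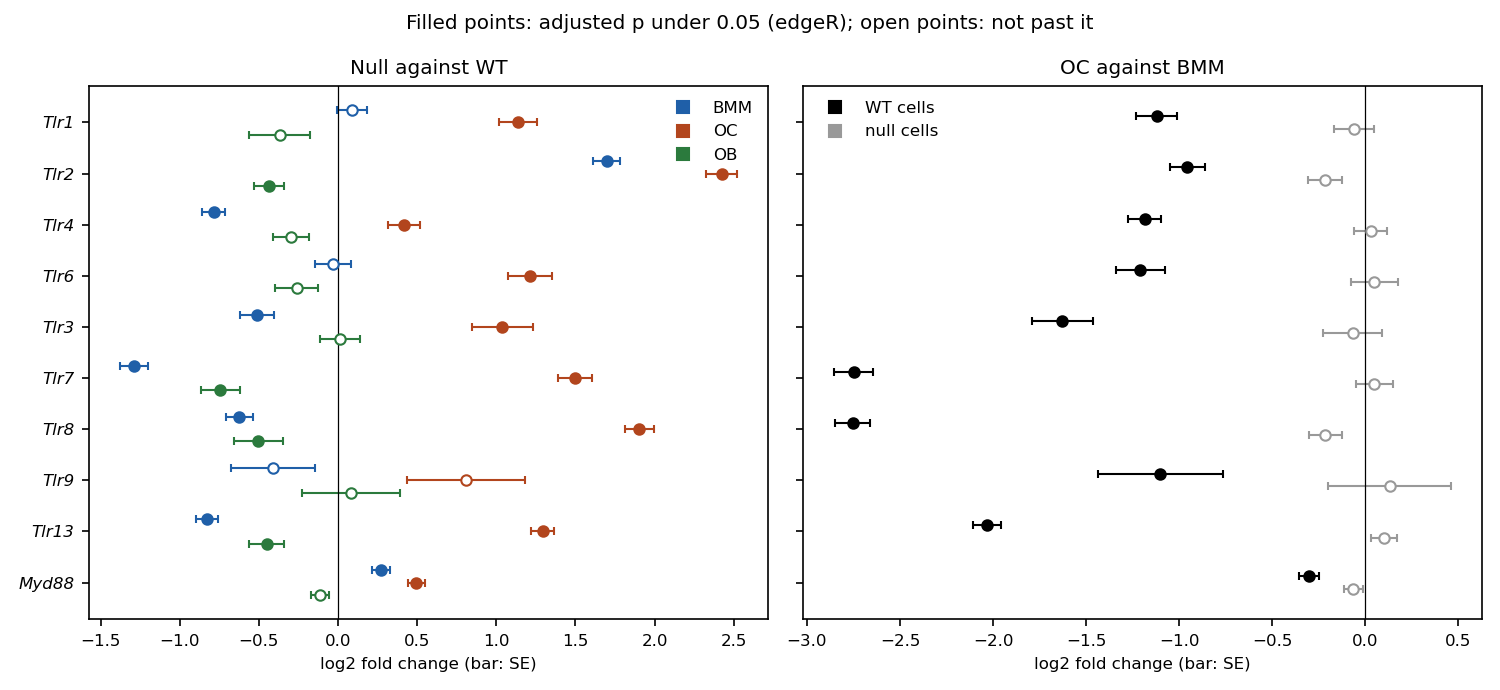
The left panel gives log2 fold changes of null against WT in BMM, OC and OB cultures, and the right panel gives OC against BMM in WT and in null cells, with SE bars and filled points for adjusted p under 0.05. Tlr2 is at 1.70 in BMM and 2.42 in OC while Tlr7 is at -1.29 and 1.49, and in the right panel the null cells sit between -0.22 and 0.13.

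In osteoblast cultures the receptors were lower than in WT BMM. All 10 members fell in WT OB against WT BMM, where 35.3% of all genes tested fell, 41.5% rose and 76.8% changed, and the ranges were apart for all 10. Tlr13 kept 12.6% of its WT BMM mean, Tlr7 13.5%, Tlr8 18.5% and Tlr4 24.4%, while Tlr2 kept 61.6% and Myd88 72.9%. All 7 macrophage markers fell in WT OB too, with a median log2 fold change of -1.64, against -1.49 for the members. All 7 osteoclast and all 7 osteoblast markers rose. These cultures were mixed by their markers, and the part of this in the receptor levels was not tested. Against WT OC, 3 members were higher in WT OB (Tlr2, Tlr3 and Tlr8), 3 were lower (Tlr4, Tlr13 and Myd88) and 4 did not pass the test. The background there was 77.9% of genes changed, 41.3% higher and 36.7% lower. The largest of these was Tlr13, at 62.2 to 86.7 CPM in WT OB against 130.3 to 150.3 CPM in WT OC (log2 fold change -0.96, SE 0.09). Tlr8 (0.32, SE 0.12) was lost without WT OB replicate 1, Tlr2 (0.25, SE 0.10) without WT OB replicate 5, and Myd88 (-0.16, SE 0.05) with RLE scaling, with no filter or with DESeq2. Tlr1 (-0.31, adjusted p 0.0545) was gained with limma-voom and without any one of WT OB replicates 1 and 5, WT OC replicate 2 and null OB replicates 2 and 4. Tlr7 was gained with an offset for transcript length (-0.28, adjusted p 0.0236).

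Fewer members, and a smaller share of all genes tested, were called for genotype in the osteoblast cultures than in BMM or OC. In null OB, 4 members fell (Tlr2, Tlr7, Tlr8 and Tlr13) and 0 rose against WT OB, where 16.9% of all genes tested fell, 15.5% rose and 32.5% changed. At an unadjusted p under 0.05 edgeR and DESeq2 each gave 5 lower and limma-voom gave 7, with 0 higher in all 3. The median of the members was -0.33, against 0.002 over all genes tested. Tlr7 ranged from 11.6 to 21.4 CPM in null OB (median 17.1) and from 24.1 to 32.8 CPM in WT OB (median 27.5), and was the member whose groups were apart (log2 fold change -0.75, SE 0.12, adjusted p 0.000408). Tlr2 was at 41.7 to 58.2 CPM (median 48.7) against 57.7 to 77.7 CPM (median 67.3), and only the edges of the ranges overlapped (log2 fold change -0.44, SE 0.09, adjusted p 0.00256). Tlr13 was at 53.4 ± 9.58 CPM against 72.6 ± 9.07 CPM (log2 fold change -0.45, SE 0.11). Tlr8 was at 15.2 ± 3.29 CPM against 21.4 ± 4.29 CPM (-0.50 on the log2 scale, SE 0.15, adjusted p 0.0215). This call was lost with an offset for transcript length (-0.43, adjusted p 0.169). Tlr4 was just outside the threshold (-0.30, SE 0.11, adjusted p 0.0563). It passed without WT OB replicate 2 or null OB replicate 3, in the fit of 36 libraries and with the length and GC offset. Of the 7 macrophage markers, 5 fell in null OB, 0 rose and 2 did not pass, with a median log2 fold change of -0.52. Csf1r was one of the 2 (0.05, SE 0.06, adjusted p 0.520). The summed level of the 7 macrophage markers, most of it Lyz2, was 8523 to 13280 TPM in null OB and 14694 to 18585 TPM in WT OB. Other markers were higher: the osteoblast markers summed to 36067 to 49556 TPM in null OB and 20633 to 29684 TPM in WT OB, with 4 of 7 higher and 0 lower, and the osteoclast markers summed to 5304 to 8010 TPM and 4059 to 5104 TPM, with 3 of 7 higher and 0 lower. The part of these levels in the lower receptor levels was not tested.

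The genotype effects of the 3 kinds of culture were also compared with each other in the fit of 36 libraries. The effect in OB was lower than that in OC for 9 members and not called for Tlr9, where 27.4% of all genes tested were lower, 27.8% were higher and 55.2% were called. Without replicate 6 of null OC it was again called for 9. The difference was largest for Tlr2 (-2.85, SE 0.14), Tlr8 (-2.39, SE 0.17) and Tlr7 (-2.22, SE 0.16). Against the effect in BMM, 6 members were called, 4 higher and 2 lower, where 45.9% of all genes tested were called, 21.6% higher and 24.3% lower. Tlr2 (-2.12, SE 0.14) and Myd88 (-0.37, SE 0.07) were lower in OB, since they rose in null BMM and not in null OB. Tlr7 (0.56, SE 0.16), Tlr4 (0.51, SE 0.14), Tlr13 (0.39, SE 0.13) and Tlr3 (0.54, SE 0.21) were higher. All 4 fell in null BMM, while in null OB Tlr7 and Tlr13 fell by less. Tlr4 (-0.30, adjusted p 0.0563) and Tlr3 (0.01, adjusted p 0.959) did not pass the test in null OB. The call of Tlr3 (adjusted p 0.0372) was lost without any one of 7 libraries (WT BMM replicates 3 and 5, null BMM replicates 2 and 4, WT OB replicate 5, and null OB replicates 5 and 6), and with no filter on low counts. The calls of Tlr3 (0.27, adjusted p 0.273) and Tlr13 (0.13, adjusted p 0.433) were lost with the length and GC offset. Tlr1 was gained with that offset (-0.51, adjusted p 0.0413) and without null OB replicate 2 (-0.53, adjusted p 0.0317).

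The order of the 6 groups by mean TPM differed between receptors. For Tlr13 it ran WT BMM (210.3 TPM), null OC (119 TPM), null BMM (107 TPM), WT OC (55.8 TPM), WT OB (27.1 TPM) and null OB (22.6 TPM), and only null OC and null BMM were neighbours that did not differ past the threshold. For Tlr7 it was the same order, from 101 to 9.48 TPM, and WT OC and WT OB (17.2 and 13.0 TPM) did not differ either. For Tlr4 the order was again the same, from 53.2 to 12.1 TPM. For Tlr2 the order began with null BMM (158 TPM) and null OC (142 TPM), which did not differ past the threshold, then WT BMM (54.1 TPM), WT OB (34.1 TPM), WT OC (30.3 TPM) and null OB (28.6 TPM), the last pair again not past it. Myd88 likewise began with null BMM (72.8 TPM) and null OC (70.0 TPM). Tlr1 and Tlr6 had WT BMM, null BMM and null OC together at the top with no neighbours differing past the threshold among them. Tlr9 had no pair of neighbours past the threshold, from 0.74 TPM in WT BMM to 0.25 TPM in WT OB. By CPM the order changed for Tlr1, Tlr8 and Myd88.

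The patterns of the members over the 6 groups were compared by the root mean square difference of their log2 CPM means after each gene was centred. Smaller values mean more alike, over 6 groups and 36 libraries that share depth and scaling. Among the members, Tlr6 and Tlr9 (0.20), Tlr1 and Tlr6 (0.24), and Tlr7 with Tlr8 (0.28) and with Tlr13 (0.29) were closest, and Tlr7 and Myd88 (0.99) were farthest apart. Tlr1 and Tlr6 share part of their sequence, as above. Of 10404 other genes with a mean of at least 5 CPM, the nearest to Tlr13 was Cd93 (0.05), the nearest to Myd88 was Ypel5 (0.04) and the nearest to Tlr2 was the chemokine gene Cxcl16 (0.10). Tlr4 was nearest to Cerk (0.09), Tlr6 to Soat1 (0.07), Tlr3 to Abtb1 (0.09), Tlr9 to Zeb2 (0.08), Tlr1 to Slc43a2 (0.11), Tlr8 to B430306N03Rik (0.11) and Tlr7 to Gdf15 (0.15).

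Transcripts within a gene were estimated by the quantifier. Tlr1, Tlr2, Tlr6 and Tlr9 were each represented by 1 transcript, and of the 2 of Tlr13, Tlr13-201 held all of its TPM in WT BMM. Tlr7 had 6 transcripts, of which Tlr7-201 held 63.9% ± 3.08 of its TPM in WT BMM and 63.2% ± 6.35 in null OC. Tlr8 had 5, led by Tlr8-202 with 62.3% ± 4.18 in WT BMM. Short transcripts of both genes took the rest on few counts: Tlr7-205, of 366 bases, held 11.5% ± 2.48 of the TPM of Tlr7 in WT BMM on 18.2 to 34.2 estimated counts. The TPM of Tlr7 and Tlr8 therefore carries more estimation error than their counts. Tlr4-201 held 91.8% ± 3.96 of the TPM of Tlr4, Tlr3-201 held 69.5% ± 12.2 of that of Tlr3, and Myd88-201 held 85.0% ± 2.23 of that of Myd88, all in WT BMM.

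The rest of the pathway was described from lists of genes that act with the receptors. Of the 3 other mouse receptors, Tlr11 had 0 counts in every library, and Tlr12 had counts, at most 7, in OB libraries alone. Tlr5, the flagellin receptor, was low, at 1.46 ± 0.433 CPM in WT BMM and 6.28 ± 1.46 CPM in WT OB. It fell in null BMM (-1.22, adjusted p 0.0067), to 0.62 ± 0.29 CPM on 3 to 17 counts. Null OC was also lower than WT OC (-2.12, adjusted p 0.00154), at 0.47 ± 0.49 CPM on 0 to 33 counts against 2.26 ± 0.27 CPM. The null values lie near the floor of counting, which limits both of these results.

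Most co-receptors and trafficking factors fell with the receptors in WT OC, where 60.5% of all genes tested changed and 30.1% fell. Of the 6 co-receptors 5 fell, with a list median of -1.14. These included Cd36, a lipid receptor that works with TLR2 and TLR6 (-2.64, SE 0.09), Cd14, which hands lipopolysaccharide to TLR4 (-1.62, SE 0.05), Ly86 (-2.91, SE 0.13) and Cd180 (-0.66, SE 0.08). Of the 9 trafficking and processing genes, 8 fell. Unc93b1, which carries the endosomal receptors out of the endoplasmic reticulum, went from 941 ± 82.9 CPM in WT BMM to 346 ± 8.86 CPM in WT OC (-1.45, SE 0.08). The proteases Ctsb (-1.90, SE 0.05) and Lgmn (-1.80, SE 0.07), which can cut the endosomal receptors, and the endosomal transporter Slc15a3 (-2.61, SE 0.11) fell as well. Irf8, a transcription factor of the macrophage lineage that also serves TLR signalling, fell from 270.5 ± 7.94 to 32.9 ± 1.52 CPM (-3.04, SE 0.08), and Irf5 fell by 0.98.

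The signalling and target genes did not move in one direction in WT OC. Of 14 kinases and ligases, 4 rose and 4 fell, among them Traf3 (1.95, SE 0.10) and Traf6 (1.00, SE 0.12) up and Ikbke (-1.38, SE 0.07) down. Of 8 negative regulators, 3 rose and 3 fell, and Irak3, a brake on the IRAK kinases, fell by 1.14. Of 9 MyD88-dependent target genes tested, 4 fell and 1 rose: Nfkbia, the NF-κB inhibitor gene, rose by 2.66 (SE 0.09), and the chemokine gene Ccl3 fell by 2.43. Of 5 TRIF-dependent target genes tested, 3 fell and Cxcl10 rose (1.46, SE 0.35). Ticam2, the bridging adaptor of TLR4, fell by 1.33 and was the one of 5 other adaptors called.

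In null BMM the lists were again mixed apart from the MyD88-dependent targets, of which 7 of 8 tested rose and 1 fell, with a median of 2.63. The lists were chosen with earlier results of these data known, so their counts here and below give no independent support. The background was 52.3% of all genes tested changed, 27% higher and 25.4% lower, with a median of 0.02. Acod1, the itaconate-making enzyme gene, was at 130 ± 17.5 CPM in null BMM against 1.59 ± 0.263 CPM (6.34, SE 0.12), Cxcl2 at 58.9 ± 12.4 against 5.98 ± 0.682 CPM (3.30, SE 0.14) and Tnf at 33.1 ± 5.22 against 9.31 ± 0.711 CPM (1.84, SE 0.11). Of 5 TRIF-dependent targets 3 fell, the interferon-induced genes Rsad2 (-1.59, SE 0.25), Ifit1 (-1.26, SE 0.23) and Isg15 (-0.71, SE 0.20), and Ccl5 rose (1.99, SE 0.19). Irf7, the interferon regulator used by TLR7 and TLR9, fell from 71.1 ± 20.5 to 15.6 ± 6.53 CPM (-2.18, SE 0.27). Of the co-receptors 2 rose and 2 fell, with Cd14 up (1.08, SE 0.06) and Ly86 down (-2.29, SE 0.12). Of the 8 negative regulators 4 rose and 3 fell, led by Irak3, at 254 ± 31.2 against 42.0 ± 4.71 CPM (2.61, SE 0.10). Of 9 trafficking genes 4 fell and 1 rose, with Lgmn (-1.60, SE 0.07) and Ctsb (-0.56, SE 0.06) lower.

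In null OC against WT OC, 7 of 9 trafficking genes rose and 1 fell, where 32.4% of all genes tested rose and 33.1% fell. Those that rose included Slc15a3 (2.82, SE 0.12), Ctsb (1.23, SE 0.04) and Unc93b1 (1.08, SE 0.08). Of 5 co-receptors tested 2 rose and 1 fell, with Cd36 (2.80, SE 0.06) and Cd14 (2.47, SE 0.05) higher. Irf8 was higher by 2.65 (SE 0.08) and Irf5 by 0.93, while Irf7 was lower (-1.69, SE 0.25). Of 8 MyD88-dependent targets 7 rose and 1 fell, with Acod1 at 138 ± 23.4 against 0.905 ± 0.296 CPM (7.26, SE 0.17) and Nfkbia lower (-1.52, SE 0.07). Without replicate 6 of null OC the counts of these 3 lists were the same. Traf6, the ubiquitin ligase shared by RANK and the receptors, was at 18.6 ± 4.67 CPM against 99.5 ± 6.62 CPM in WT OC (-2.40, SE 0.13), and was also lower in null BMM (-1.52, SE 0.12). Irak3 was higher by 3.70 (SE 0.07).

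In null OB, where 32.5% of all genes tested changed and 16.9% fell, the lists differed. Of 9 trafficking genes 5 fell and 0 rose, with Ctsb (-0.62, SE 0.07) and Unc93b1 (-0.53, SE 0.07) among them, of 6 co-receptors 3 fell and 0 rose, with Ly96, the TLR4 partner gene, at -0.54 (SE 0.09), and of 9 MyD88-dependent targets 2 fell, Ccl3 (-0.97, SE 0.15) and Cxcl2 (-0.93, SE 0.28). Of 14 kinases and ligases 2 rose and 1 fell, and of 5 other adaptors 1 rose and 1 fell. Irf8 was lower by 0.53 there. In null OC against null BMM, 3 of 6 co-receptors, 2 of 9 trafficking genes (1 higher, 1 lower) and 1 of 9 MyD88-dependent targets changed, against 12.9% of all genes tested, with log2 fold changes from -0.48 (Ly86) to 0.34 (Cd180). Of the other lists, 1 of 14 kinases and ligases, 1 of 4 transcription factors and 1 of 8 negative regulators changed. None of 5 other adaptors or 5 TRIF-dependent targets did. Without replicate 6 of null OC the counts were 3, 3 (all lower) and 1, and for the other lists in that order 1, 2, 2, 0 and 0.

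**Figure D4:**
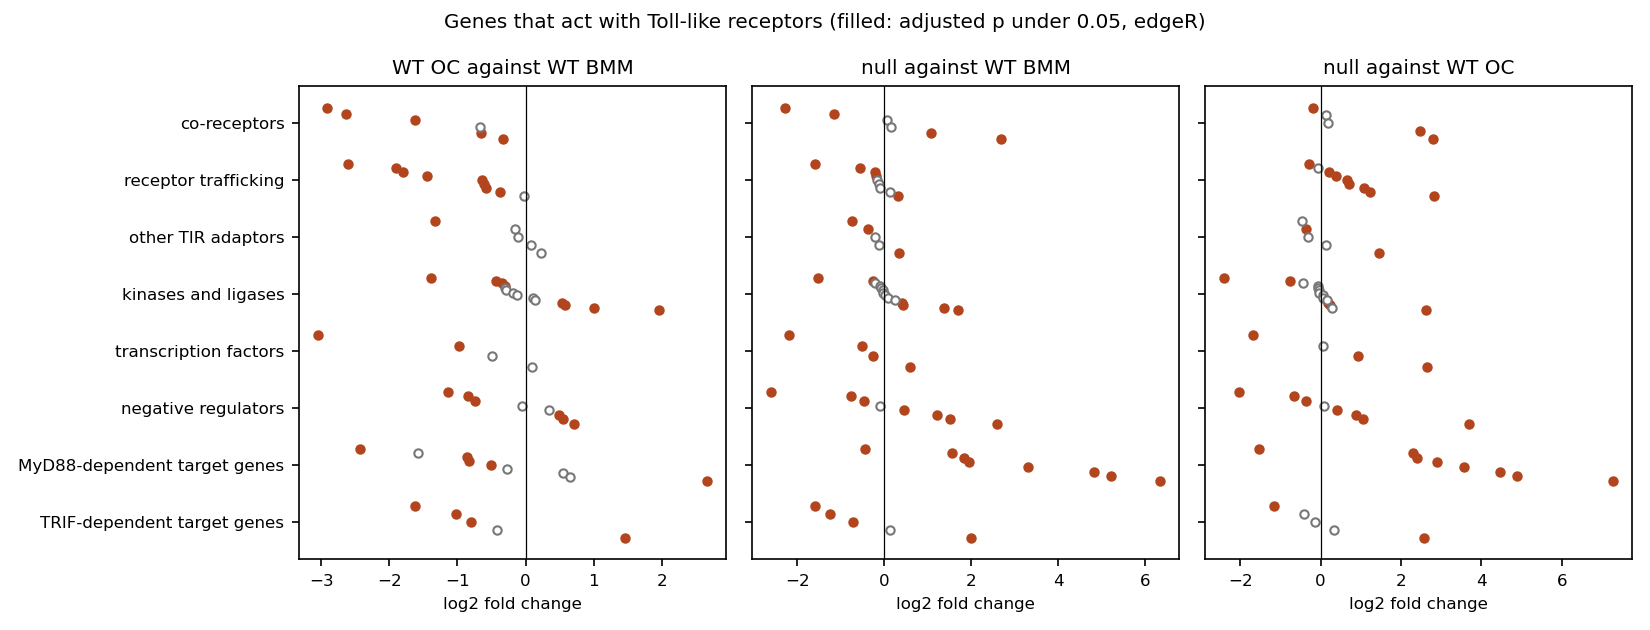
Each point is 1 gene of a list (rows) with its log2 fold change in 3 comparisons (panels), filled where the adjusted p was under 0.05. In WT OC against WT BMM most co-receptor and trafficking genes lie below 0, and in both null against WT panels 7 of 8 MyD88-dependent target genes lie above 0.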

How the data were processed

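RNA-seq was deposited as 1 transcript table per library, with an estimated count and a TPM value for each transcript, per the file headers. The submitters' processing notes name kallisto and DESeq2 with no version, and the human build GRCh38, although the identifiers are mouse Ensembl ones; the annotation the authors used is not given in the sources used here. By identifier, 97.5% of the 88198 transcripts were found in GENCODE M21 (GRCm38), with an identical length for 88.9% of the matches. Unmatched transcripts, with 0.629% to 0.974% of the counts per library, were not used. Estimated counts and deposited TPM were summed per gene, and counts were rounded. Genes were filtered with filterByExpr, scaled by TMM and tested with the quasi-likelihood test of edgeR 4.0.16 (R 4.3.3), with Benjamini-Hochberg adjustment and a threshold of 0.05. Genotype was fitted on 12 libraries of a culture, RANK-L and its interaction on 24, and OB contrasts on 36. The fit was tested on simulated data.

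Alternatives were scaling by RLE, dropping the filter, requiring 10 counts on average, DESeq2 1.42.0, limma 3.58.1 (voom, quality weights), a block for the replicate number, offsets for transcript length alone or for length and GC content together (lowess span 0.3), a single fit of the 36 libraries, and leaving out each library. The named genes were the members, up to 4 genes with the smallest p from each list, and the nearest genes by pattern. The members and lists were chosen with earlier results of these data known. No 2 libraries of a group agreed within sampling noise: the closest pair gave a chi-square per gene of 3.46. The floor of 3 counts allows for counting error alone, because the reads carry no molecular identifiers. The labels give no sequencing date or lane, so batch and genotype cannot be told apart where they coincide. Counts of the lists without null OC replicate 6 were added after seeing the data. One further marker list is not reported here.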

Additional observations from a re-analysis of the deposited data

Results flagged for a closer look

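One group held a library far from the others. Tlr2 was at 66.3 TPM in WT BMM replicate 4, above the other 5 libraries by a gap that exceeds the 95% limit of Dixon's test. Of 60 groups of 6 tested this way 1 exceeded it, and chance gives about 1 in 20. Leaving this library out changed no call of Tlr2.

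The responses to RANK-L of null and WT cells differed for every member by the interaction test of edgeR, at 2.80 for Tlr7, 2.54 for Tlr8, 2.13 for Tlr13, 1.56 for Tlr3, 1.26 for Tlr6, 1.23 for Tlr9, 1.21 for Tlr4, 1.06 for Tlr1, 0.74 for Tlr2 and 0.24 for Myd88 (log2). In 51.4% of all genes tested this interaction was called, so the members share it with more genes than not.

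The effect of genotype in OB was lower than in OC by the same kind of test, by log2 differences of -2.85 for Tlr2, -2.39 for Tlr8, -2.22 for Tlr7, -1.73 for Tlr13, -1.49 for Tlr1, -1.46 for Tlr6, -1.01 for Tlr3, -0.70 for Tlr4 and -0.59 for Myd88. Between OB and BMM the effect differed by -2.12 for Tlr2, -0.37 for Myd88, 0.56 for Tlr7, 0.54 for Tlr3, 0.51 for Tlr4 and 0.39 for Tlr13. Of these, Tlr2 had the largest difference in both sets. The cause of these differences was not tested.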

How the results depend on the processing

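Of 3379 member values recomputed under the alternatives, 3309 kept their direction and their side of the threshold, 27 lost it, 19 gained it and 24 changed sign. None of the 24 belonged to a value that was called, and the lost and gained calls are given beside the results or, for the replicate block, here. The number of members called stayed at 7 in null against WT BMM and at 10 in WT OC against WT BMM under every alternative. It was 9 to 10 in null against WT OC, 3 to 5 in null against WT OB, and 8 to 10 for the interaction with RANK-L. In null OC against null BMM it was 0 to 1 when single libraries were left out, with 1 without null OC replicate 1.

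The signs that changed were all of values near 0. With limma-voom Tlr3 was -0.00407 in null against WT OB and 0.0663 in null OC against null BMM. With the length and GC offset Tlr6 was 0.00273 in null against WT BMM, and in null against WT OB Tlr3 was -0.15 and Tlr9 -0.0461. With single libraries left out, values in null against WT OB ran from -0.0498 to 0.10 for Tlr3 and from -0.0213 to 0.24 for Tlr9, and in null against WT BMM from -0.096 to 0.0364 for Tlr6. In null OC against null BMM they ran from -0.16 to 0.0528 for Tlr3, from -0.0226 to 0.12 for Tlr6, from -0.0285 to 0.11 for Tlr4, from -0.0109 to 0.12 for Tlr7, from -0.0632 to 0.27 for Tlr9 and from -0.13 to 0.00891 for Tlr1.

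Libraries with the same replicate number did not deviate together: correlations of their deviations ran from -0.131 to 0.103 over 5 pairs of groups. The replicate block therefore rests on a shared number alone. Under the replicate block Tlr3 was -0.000512 in null against WT OB, the interaction of Tlr9 was 1.19 (adjusted p 0.0565), and the genes called in null OC against null BMM were 1243 of all tested, against 1628 without it. It changed no other call of a member. Genes called over all tested fell from 4420 to 2289 in null against WT OB with the length and GC offset, and from 1628 to 1013 in null OC against null BMM with limma-voom.

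Depth limits Tlr9 most, with 7 to 52 counts per library. Ranked by CPM in place of TPM, 3 of 6 groups kept their rank for Tlr1 and 4 of 6 for Tlr8 and Myd88.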
